A study of Bos taurus with 3 samples.

Results

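Prostaglandins are short-range lipid signals made from arachidonic acid. The cyclooxygenases PTGS1 and PTGS2 turn arachidonic acid into a common intermediate, from which PTGES and PTGES3 make prostaglandin E, PTGDS makes prostaglandin D and PTGIS makes prostacyclin. HPGD oxidises prostaglandins to inactive keto forms, and PTGER2 and PTGER4 are receptors of prostaglandin E. In stratified epithelia and in the gut wall these signals are known for their part in blood flow, repair and inflammation. These 9 genes of synthesis, breakdown and reception were described here in the rumen of newborn dairy calves. They were chosen by symbol, and each symbol matched 1 of the 27270 genes in the count matrices.

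Rumen tissue of 3 newborn calves, freed of its outer muscle layers, was dissociated with enzymes and made into 1 droplet library per calf. The adult animals of the study were not analysed here. With 1 library per calf, a difference between calves and a difference between libraries cannot be told apart. There were 7529, 12043 and 11656 barcodes in the libraries of calves 1, 2 and 3, with 82263092, 89803289 and 106145091 unique molecular identifiers (UMIs), each of which stands for 1 counted RNA molecule. Of these 31228 barcodes, 26215 had 500 to 4000 detected genes. After limits on UMIs and mitochondrial RNA and the removal of 191, 908 and 879 likely doublets, 4695, 9746 and 9601 cells were kept. Few barcode sequences were shared between the kept cells of a pair of calves: 11 for calves 1 and 2, 19 for calves 1 and 3, and 25 for calves 2 and 3.

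The kept cells fell into 21168 epithelial cells, 1307 endothelial cells, 780 fibroblasts and 787 immune cells. The fibroblast class held 319 cells with markers of mural and smooth muscle cells. Calf 1 gave 74 endothelial cells, 22 fibroblasts and 10 immune cells. Its immune cells were left out of means and tests as too few, and its values for that class are printed for completeness. Each class held its defining markers. The keratin KRT5 reached 50.4, 47.5 and 41.7 UMIs per 10000 in the epithelial cells of calves 1, 2 and 3, PECAM1 6.90, 7.0 and 6.39 in endothelial cells, COL3A1 113, 107 and 117 in fibroblasts, and PTPRC 2.59 and 3.62 in the immune cells of calves 2 and 3. KRT5 was also counted outside epithelial cells, at 4.02, 2.68 and 1.55 in endothelial cells, at 30.3, 4.56 and 4.16 in fibroblasts and at 3.59, 5.67 and 1.69 in immune cells, and EPCAM, at 1.98, 1.57 and 1.2 in epithelial cells, was at 0.624, 0.165 and 0.144 in fibroblasts. The 22 fibroblasts of calf 1 thus stood apart from those of the other calves, and the part of epithelial RNA in their values was not tested.

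Levels are UMIs of a gene per 10000 UMIs of all genes, summed over the cells of a class in a calf. Shares are the percentage of cells with at least 1 UMI of a gene after each cell had been thinned at random to 2000 UMIs, since the median depth was 7634.5 UMIs for epithelial cells, 3995 for endothelial cells, 2079.5 for fibroblasts and 4903 for immune cells. Thinning left 20648 epithelial cells, 1166 endothelial cells, 415 fibroblasts and 699 immune cells, the shallower ones being left out. Intervals of shares are exact binomial 95% intervals and cover counting error only. Differences between classes are log2 differences with their standard error (SE), from summed counts with the calf as a block, and were called at an adjusted p below 0.05. The TMM scaling of that test moved the log2 differences from epithelial cells by -0.36 for endothelial cells, -0.48 for fibroblasts and -0.31 for immune cells, relative to plain UMIs per 10000.

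Many genes differ between such classes, so each count of members is set beside the share of all 11539 genes that were called. Between endothelial and epithelial cells 46.3% of all genes were called and 5 of the 8 members tested, 2 higher and 3 lower in endothelial cells. Between fibroblasts and epithelial cells the share was 37.5%, with 6 of 8 members called, 5 of them higher in fibroblasts. In immune against epithelial cells the share was 45.9%, with 3 of 8 members called, and in endothelial cells against fibroblasts it was 26.8%, with 6 of 8 called, all lower in endothelial cells. The median log2 difference of the members was -0.66, 1.63, 0.55 and -2.30 in these 4 comparisons, and that of all genes was -0.01, -0.07, -0.08 and 0.04. These counts and medians describe the members that had enough counts, and PTGER2 had too few to be tested.

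**Figure D1:**
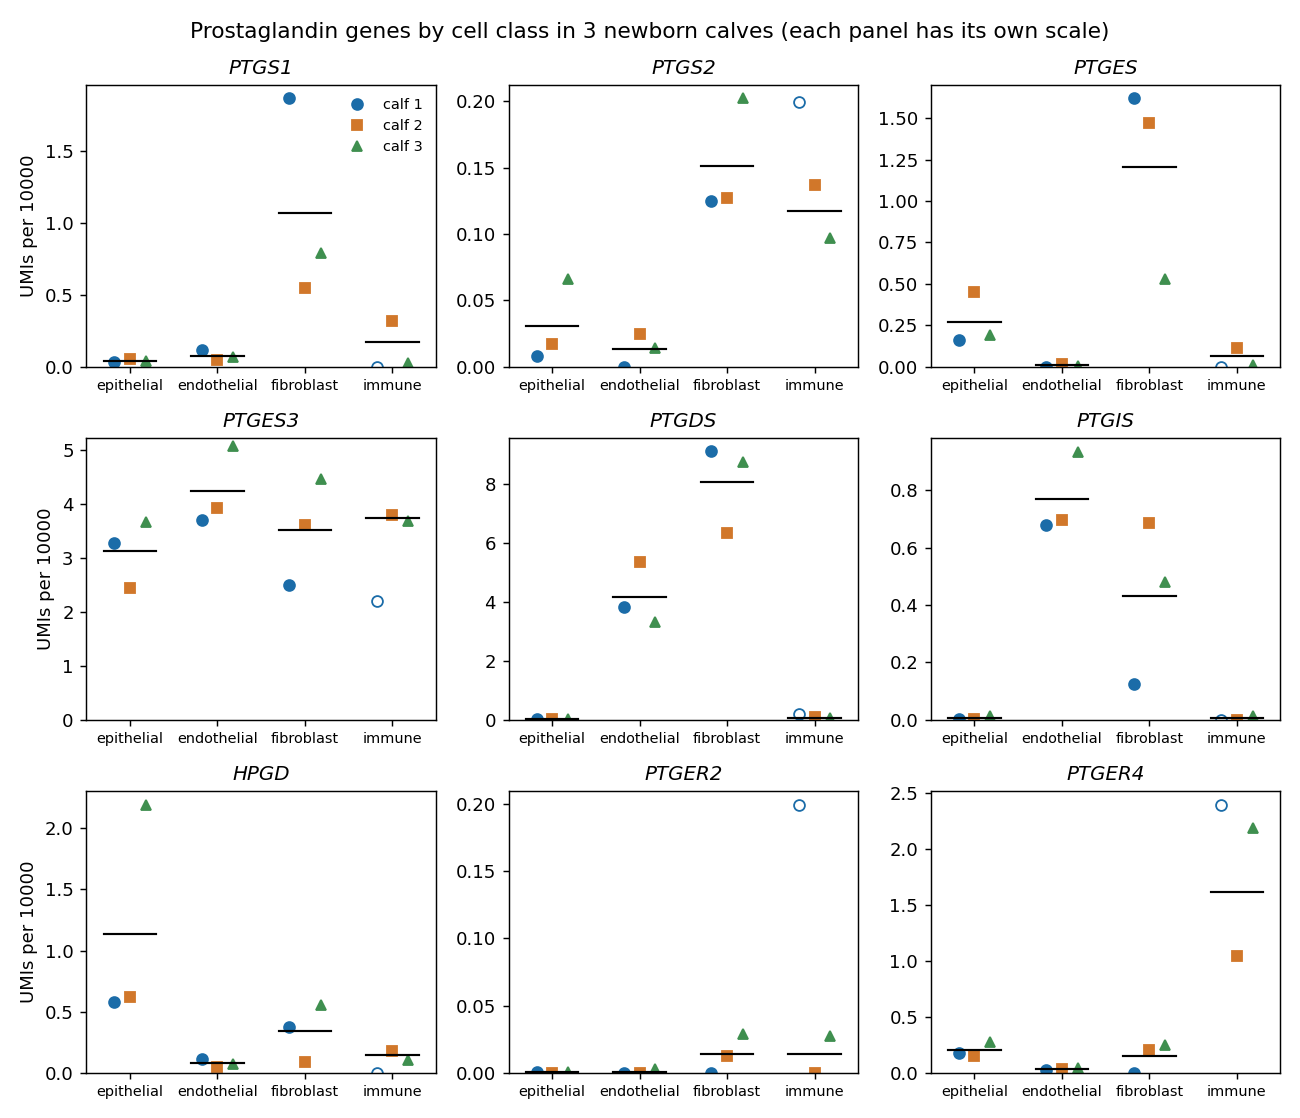
Level of each of the 9 genes, in UMIs per 10000, in epithelial cells, endothelial cells, fibroblasts and immune cells of 3 newborn calves, each panel with its own scale. Symbols are calves, lines are means over calves with at least 20 cells, and open symbols mark the 10 immune cells of calf 1; HPGD was highest in epithelial cells, PTGDS in fibroblasts and endothelial cells, and PTGER4 in immune cells.

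Synthesis begins with the cyclooxygenases. PTGS1 (ENSBTAG00000006716), the form that many tissues express at a steady level, was found at 1.87, 0.546 and 0.789 UMIs per 10000 in the fibroblasts of calves 1, 2 and 3. In epithelial cells it stood at 0.0301, 0.0532 and 0.0414, and in endothelial cells at 0.113, 0.0488 and 0.0654. Fibroblasts were thus above both of these classes in all 3 calves, without overlap, and calf 1 with its 22 fibroblasts was the highest. The log2 difference of fibroblasts from epithelial cells was 3.91 (SE 0.63, adjusted p = 0.00110, edgeR), and that of endothelial cells from fibroblasts was -3.63 (SE 0.76, adjusted p = 0.00651). After thinning, 25%, 10.6% and 13% of fibroblasts had a PTGS1 UMI, against 0.764%, 0.924% and 0.745% of epithelial cells. Without thinning these shares were 27.3%, 10.2% and 14.0% in fibroblasts and 3.14%, 3.69% and 3.43% in epithelial cells. Fibroblast shares depended on the thinning depth, which sets how many cells are deep enough to be counted. At 4000 UMIs the mean share over calves was 3.19% in place of 16.2% for PTGS1, 21.9% in place of 5.44% for HPGD and 24.3% in place of 5.97% for PTGIS, so the levels, and not these shares, carry the comparison.

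In immune cells PTGS1 was found at 0.319 in calf 2 and 0.0250 in calf 3, and no UMI was found in the 10 immune cells of calf 1. The 2 larger sets of immune cells differed widely from each other, calf 2 resting on 14 UMIs in 80 cells and calf 3 on 9 UMIs in 697 cells. Of the markers of other classes in these immune cells, COL3A1 (0.523 and 0.189), DCN (1.62 and 0.186), KRT5 (5.67 and 1.69) and EPCAM (0.182 and 0.0583) were also higher in calf 2 than in calf 3, while PECAM1 (0.455 and 0.855) and CLDN5 (0 and 0.0639) were lower. The part of such RNA in the PTGS1 values was not tested. The PTGS1 log2 difference between immune and epithelial cells was not called, at 0.77 (SE 0.91, adjusted p = 0.534). Without calf 3, where calf 2 alone stood for immune cells and was assumed to vary like the other sums, it was 2.59 with an adjusted p of 6.83e-04.

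The level of PTGS1 in the fibroblast class came from its fibroblast-like clusters. A cluster led by CXCL14, PENK, APOD and LUM, which carried the markers of PAM fibroblasts, held PTGS1 at 0.861 and 1.81 in calves 2 and 3, and at 5.54 in the 9 cells of calf 1. A cluster led by DLK1, MFAP5 and SAA3 held it at 1.27 and 1.26 in calves 2 and 3. In the cluster with markers of mural and smooth muscle cells, led by ACTA2, HIGD1B, TPM2 and MYH11, it was near the limit of counting, at 0.0540 and 0.0189, which is 2 UMIs in 121 cells and 1 UMI in 192 cells. The ranges of the fibroblast-like clusters and of the mural and muscle-like cluster did not overlap; this was described and not tested.

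PTGS2 (ENSBTAG00000014127), the cyclooxygenase that is induced by cytokines and growth factors, was scarce. Its RefSeq neighbour in the ARS-UCD2.0 gene order is PLA2G4A, whose product releases arachidonic acid from membranes. In fibroblasts PTGS2 reached 0.125, 0.127 and 0.202 UMIs per 10000, in epithelial cells 0.00771, 0.0172 and 0.0662, and in endothelial cells 0, 0.0244 and 0.0142. Every calf had more in fibroblasts than in epithelial cells, calf 1 by a single UMI in its fibroblasts, and within epithelial cells calf 3 stood at 5.32 times the mean of calves 1 and 2. The log2 difference of fibroblasts from epithelial cells was 1.81 (SE 0.52, adjusted p = 0.0105). Without calf 2 it was 1.37 and no longer called (adjusted p = 0.101).

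Endothelial cells had less PTGS2 than fibroblasts, with a log2 difference of -3.19 (SE 0.68, adjusted p = 0.00151), which without calf 3 was -2.63 (adjusted p = 0.0846). The 74 endothelial cells of calf 1 had no PTGS2 UMI, which allows a level of up to 0.0849. The PTGS2 log2 difference between endothelial and epithelial cells was -1.38 (adjusted p = 0.0745). Of the 14 alternatives run, it was called with the low-count filter left out, at -1.48 (adjusted p = 0.0292), and without calf 2, at -2.59 (adjusted p = 0.00418), while without calf 3 it was -0.04. The thinned shares were small in all classes, 0.112%, 0.304% and 1.33% of epithelial cells and 0%, 1.86% and 3.78% of fibroblasts, the 0 being 0 of 16 cells.

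Among immune cells PTGS2 lay mostly in 1 cluster. The macrophage- and monocyte-like cluster, led by the complement genes C1QA, C1QC and C1QB and holding CXCL8 and GRO1 among its 10 leading genes, had 0.321 UMIs per 10000 in the 22 cells of calf 2 and 0.642 in the 102 cells of calf 3. The T-like cluster had 0 and 0.0162 in these calves, and the larger dendritic-like cluster 0.0852 in 18 cells and 0.0142 in 202 cells. Of the 35 PTGS2 UMIs in the immune cells of calf 3, 32 were in the macrophage-like cluster. The difference of all immune cells from epithelial cells was not called (1.11, SE 0.54, adjusted p = 0.104).

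The terminal synthases PTGES, PTGES3, PTGDS and PTGIS are described next. PTGES (ENSBTAG00000019453), the inducible synthase of prostaglandin E, was found at 1.62, 1.47 and 0.529 UMIs per 10000 in fibroblasts, at 0.160, 0.450 and 0.192 in epithelial cells, and at 0, 0.0163 and 0.00284 in endothelial cells. These 3 classes kept this order in every calf, and their ranges did not overlap. In endothelial cells the values rest on 0, 4 and 1 UMIs. The log2 difference of fibroblasts from epithelial cells was 1.46 (SE 0.30, adjusted p = 8.55e-04), and without the calf as a block it was 1.58 and not called (adjusted p = 0.0986). Endothelial cells lay below epithelial cells by a log2 difference of -5.53 (SE 0.52, adjusted p = 1.80e-07) and below fibroblasts by -6.99 (SE 0.53, adjusted p = 4.06e-08). Without doublet removal the mean of PTGES in endothelial cells was 0.0586 in place of 0.00637. The PTGES log2 difference between endothelial and epithelial cells was then -2.57 and that from fibroblasts -3.83, both still called.

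Epithelial cells of calf 2 had 2.55 times the PTGES level of the mean of calves 1 and 3. Thinned epithelial cells had a PTGES UMI in 2.92% (95% interval 2.45 to 3.46), 8.81% (8.21 to 9.43) and 4.02% (3.59 to 4.48) of cases in calves 1, 2 and 3, so calf 2 was apart by more than counting error. Unthinned, the shares were 14.7%, 24.9% and 14.2%. Endothelial cells served as the class with the least PTGES, with thinned shares of 0%, 0.612% and 0%, where the intervals of 0 of 67 and 0 of 609 cells reach 5.36% and 0.604%. Immune cells also had less PTGES than epithelial cells, at 0.114 in calf 2 and 0.00833 in calf 3, with a log2 difference of -3.51 (SE 0.52, adjusted p = 3.97e-05). The 10 immune cells of calf 1 had none.

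In fibroblasts PTGES lay mostly in the cluster with PAM fibroblast markers. That cluster had 3.68 and 1.38 UMIs per 10000 in calves 2 and 3, from 107 and 42 UMIs, and 6.04 in the 9 cells of calf 1. The cluster with MFAP5 and DLK1 had 0.713 and 0.583, and the mural and muscle-like cluster 0 and 0.0189. The 2 fibroblast-like clusters did not overlap in calves 2 and 3, and in both of them calf 2 was above calf 3, as in epithelial cells. PTGS1 and PTGES were then compared cell by cell within the PAM fibroblast-like cluster. Of its thinned cells with a PTGS1 UMI, 2 of 5 in calf 2 and 4 of 18 in calf 3 also had a PTGES UMI, against 45.2% and 14.3% of the cells without PTGS1. The 2 calves went opposite ways on few cells, and no test was made. In calf 1, with 6 such cells, 2 of the 3 with PTGS1 and 0 of the others had PTGES.

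PTGES3 (ENSBTAG00000017967) is a cytosolic prostaglandin E synthase that is better known as a co-chaperone. It was present in all classes, at 3.28, 2.44 and 3.66 UMIs per 10000 in epithelial cells, 3.71, 3.93 and 5.08 in endothelial cells, 2.49, 3.61 and 4.47 in fibroblasts, and 3.8 and 3.68 in the immune cells of calves 2 and 3. Neighbouring classes in the order of means overlapped, while endothelial cells were above epithelial cells in each calf. No class difference was called, with log2 differences from epithelial cells of 0.07 for endothelial cells, -0.24 for fibroblasts and -0.12 for immune cells (adjusted p = 0.794, 0.401 and 0.705). With UMI totals in place of TMM scaling, an alternative added later, these were 0.44, 0.21 and 0.20 for PTGES3, the last 2 with the sign turned, and none was called by edgeR (adjusted p = 0.0585, 0.423 and 0.487). After thinning, 44.9%, 37.1% and 49.6% of epithelial cells had a PTGES3 UMI, and 88.4%, 77.2% and 89.1% before it.

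PTGDS (ENSBTAG00000015074) makes prostaglandin D and is also a secreted carrier of the lipocalin family. Fibroblasts held 9.10, 6.34 and 8.73 UMIs per 10000 and endothelial cells 3.82, 5.37 and 3.33, while epithelial cells held 0.0328, 0.0191 and 0.0228. Immune cells were low as well, at 0.0910 in calf 2 and 0.0444 in calf 3. The order fibroblast, endothelial, immune, epithelial held without overlap between neighbours. The log2 difference from epithelial cells was 7.05 in endothelial cells (SE 0.29, adjusted p = 3.21e-12) and 7.89 in fibroblasts (SE 0.30, adjusted p = 1.45e-12), higher in 3 of 3 calves in both cases. Endothelial cells were below fibroblasts by a log2 difference of -0.84 (SE 0.23, adjusted p = 0.0104), a call that was lost without calf 1 (-0.78, adjusted p = 0.0536), without calf 3 (-0.59, adjusted p = 0.157) and without the block (-0.80, adjusted p = 0.0590).

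A PTGDS UMI was found in 52.2%, 56.9% and 43.3% of thinned endothelial cells and in 62.5%, 58.4% and 62.6% of thinned fibroblasts. Epithelial cells, the class with the least PTGDS, had one in 0.674%, 0.538% and 0.523%. The part of free RNA in these shares was not tested. Before thinning the median depth was 7634.5 UMIs in epithelial cells and 3995 in endothelial cells. Unthinned, the shares were 67.6%, 73.0% and 66.6% in endothelial cells and 3.31%, 1.38% and 1.88% in epithelial cells. Within the fibroblast class, the cluster with MFAP5 and DLK1 held 16.6 and 21.8 UMIs per 10000 in calves 2 and 3, the PAM fibroblast-like cluster 6.09 and 9.60, and the mural and muscle-like cluster 3.03 and 3.12. These 3 clusters did not overlap in the 2 calves. The 2 endothelial clusters did, at 5.43 and 3.03 in the one led by PLVAP and 5.05 and 4.02 in the one led by CLDN5.

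PTGIS (ENSBTAG00000017537), the prostacyclin synthase known from vessel walls, stood at 0.679, 0.696 and 0.936 UMIs per 10000 in endothelial cells and at 0.125, 0.686 and 0.481 in fibroblasts. Epithelial cells held 0.00356, 0.00362 and 0.0123, and immune cells 0 in calf 2 and 0.0139 in calf 3. Endothelial cells and fibroblasts overlapped, and both lay above epithelial cells in 3 of 3 calves, though the fibroblasts of calf 1 had a single PTGIS UMI in 22 cells, where 3 counts would be 0.374. The log2 differences from epithelial cells were 6.54 in endothelial cells (SE 0.39, adjusted p = 5.80e-09) and 5.88 in fibroblasts (SE 0.43, adjusted p = 8.74e-08). The PTGIS log2 difference between endothelial cells and fibroblasts, 0.67, was not called (adjusted p = 0.239), though without calf 2 it was 1.27 and called (adjusted p = 0.0221). Thinned shares were 13.4%, 8.98% and 15.9% in endothelial cells against 0.0674%, 0.0819% and 0.301% in epithelial cells, and the unthinned shares were 21.6%, 20.4% and 29.6% against 0.370%, 0.274% and 1.01%.

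Clusters separated PTGIS further. The endothelial-like cluster led by CLDN5, APOA1 and SOX18 held 1.63 and 1.83 UMIs per 10000 in calves 2 and 3 and 2.05 in the 14 cells of calf 1. The cluster led by PLVAP, TM4SF18 and RNASE1 held 0.434, 0.511 and 0.544. In each calf the former was above the latter and the ranges did not overlap, a difference that was described and not tested. Among fibroblasts, the cluster with MFAP5 and DLK1 held 1.90 and 2.28 in calves 2 and 3. In the 7 cells of calf 1 it held 0.311 from 1 UMI, where 3 counts would be 0.933. The PAM fibroblast-like cluster had 1 UMI in the 162 cells of calf 2 and 0 in the 154 cells of calf 3. The mural and muscle-like cluster differed between the calves, with 0.783 in calf 2 and 0.0568 in calf 3. Of thinned endothelial cells with a PTGDS UMI, 14.3%, 8.24% and 16.7% had a PTGIS UMI in calves 1, 2 and 3, against 13.4%, 8.98% and 15.9% of all thinned endothelial cells, a small difference that went down in calf 2 and up in the others.

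**Figure D2:**
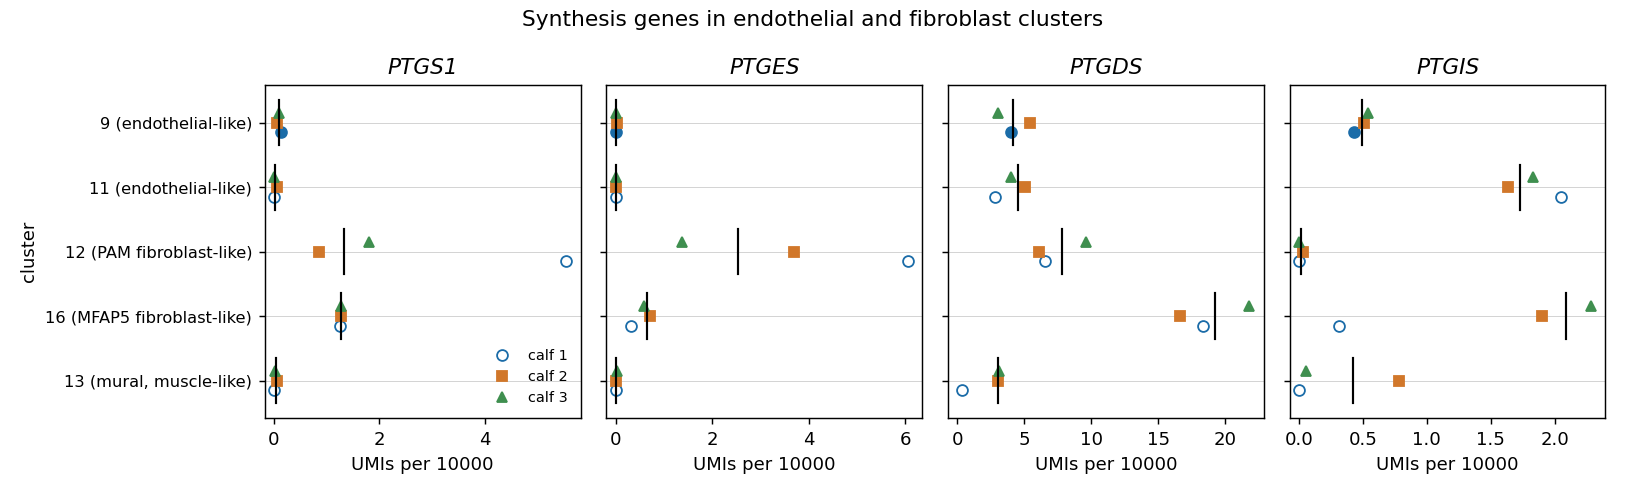
Level of PTGS1, PTGES, PTGDS and PTGIS, in UMIs per 10000, in 2 endothelial-like, 2 fibroblast-like and 1 mural and muscle-like cluster of 3 newborn calves, each panel with its own scale. Open symbols are sums of fewer than 20 cells and lines are means over the other sums; PTGES was highest in the PAM fibroblast-like cluster, PTGDS in the MFAP5 fibroblast-like cluster, and PTGIS in the MFAP5 fibroblast-like cluster and endothelial-like cluster 11.

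Breakdown was represented by HPGD (ENSBTAG00000025942), the enzyme that starts the inactivation of prostaglandins. It was found at 0.579, 0.623 and 2.19 UMIs per 10000 in the epithelial cells of calves 1, 2 and 3, at 0.113, 0.0488 and 0.0740 in endothelial cells, and at 0.374, 0.0890 and 0.558 in fibroblasts. Immune cells held 0.182 in calf 2 and 0.103 in calf 3, and the 10 cells of calf 1 held 0. Epithelial cells were highest in every calf, and calf 3 stood apart within them, at 3.65 times the mean of calves 1 and 2. The mean in epithelial cells was 1.13 ± 0.919 (SD, n = 3 calves), a spread that comes from calf 3. Endothelial cells were below epithelial cells by a log2 difference of -4.52 (SE 0.49, adjusted p = 1.31e-05), fibroblasts by -2.34 (SE 0.45, adjusted p = 0.00160) and immune cells by -3.93 (SE 0.57, adjusted p = 1.78e-04). Without doublet removal the mean HPGD level was 0.204 in place of 0.0787 in endothelial cells and 0.327 in place of 0.142 in immune cells. Over the 14 alternatives the endothelial difference shrank to at most -2.75, still called, and the immune one to -2.04. The immune difference was called wherever calves 2 and 3 were both kept, since without either it rests on 1 calf.

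Endothelial cells also had less HPGD than fibroblasts, with a log2 difference of -2.18 (SE 0.59, adjusted p = 0.0173), which without calf 3 was -1.01 (adjusted p = 0.334) and without the block -2.22 (adjusted p = 0.0576). Most of the HPGD in the fibroblasts of calf 3 came from the cluster with MFAP5 and DLK1, at 2.14 UMIs per 10000 from 44 of the 58 UMIs, against 0.132 in the PAM fibroblast-like cluster. In calf 2 the same cluster had 0.317, again more than the other 2 clusters. Epithelial cells stood at 2.19 in calf 3 and 0.623 in calf 2. The cluster was thus close to the epithelial level in calf 3 and below it in calf 2. The lower HPGD of the fibroblast class does not describe this cluster in calf 3. After thinning, 11% (95% interval 10.1 to 12), 11.4% (10.8 to 12.1) and 33.5% (32.4 to 34.6) of epithelial cells had an HPGD UMI. Endothelial cells had one in 2.99%, 0.816% and 1.31%, so the epithelial shares were higher in each calf. Unthinned, the shares were 35.0%, 29.2% and 67.7% in epithelial cells and 5.41%, 1.82% and 3.8% in endothelial cells.

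Epithelial cells formed 12 clusters. Genes of the pathway were left out of the genes used for clustering, so they did not define these clusters. Cluster 10 was spinous-like, with SPINK5 and KRTDAP in the lead, clusters 6 and 15 were mitotic-like, clusters 3 and 14 carried S-phase markers, and cluster 4 was high in chemokines such as CXCL3, GRO1 and CXCL2. No cluster carried enough basal or granule markers to be named for them. The other 6 clusters stayed unnamed and are called by their leading genes: ATF3 and FOS in cluster 0, CCN2 and RGS4 in cluster 1, IFI6 and DCN in cluster 2, IGFBP3 and CRYAB in cluster 5, mitochondrial genes in cluster 7, and KRT4 and S100A12 in cluster 8. Cluster 7 had a median of 3339.5 UMIs and 18.6% mitochondrial UMIs. The other unnamed clusters had medians of at least 6499 UMIs and at most 7.53%. Comparisons with the unnamed clusters gave cluster 7 the same weight as each of the others. Among all 12 clusters, 79.8% of the 11041 genes tested were called and 8 of the 8 members tested, so that a difference somewhere among the clusters was the rule for genes in general. Without the block 5 of 8 members were called, beside 4891 of 11041 genes. Without calf 3 it was 4 of the 7 members tested, beside 6547 of 10826 genes.

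HPGD spanned a wide range among these clusters. It was highest in cluster 1 (CCN2 and RGS4), at 1.32, 1.46 and 4.09 UMIs per 10000 in calves 1, 2 and 3, followed by the small S-phase cluster 14, at 1.37, 0.772 and 3.82, and the chemokine-high cluster 4, at 1.14, 1.14 and 3.51. The lowest means were in cluster 5 (IGFBP3 and CRYAB), at 0.195, 0.155 and 0.940, and in cluster 8 (KRT4 and S100A12), at 0.176, 0.193 and 0.938. Within a calf, cluster 1 had 6.79, 9.38 and 4.34 times the level of cluster 5 in calves 1, 2 and 3. Clusters 1, 4 and 14 were thus among the highest 4 in each calf, while the ranges over calves of neighbouring clusters overlapped, with calf 3 the highest in every cluster. The adjusted p of HPGD in the edgeR test of any difference among clusters was 5.00e-06.

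The spinous-like cluster differed in that respect. Its HPGD level was 0.399, 0.577 and 0.590 in the 3 calves, so calf 3 was 1.21 times the mean of calves 1 and 2. In the other 11 clusters that ratio lay between 2.31, in mitotic-like cluster 6, and 5.41, in cluster 0. Whether the calves differed less in spinous-like cells was not tested. Of spinous-like cells thinned to 2000 UMIs, 94.6%, 92.3% and 89.1% had no HPGD UMI in calves 1, 2 and 3, so that cells with one were still most frequent in calf 3. In cluster 1, 2 or more HPGD UMIs were found in 5.21%, 3.35% and 20.3% of thinned cells. In cluster 1 of calf 3, 48.6% of the cells had no HPGD UMI, 31.1% had 1, and the highest count in a cell was 6.

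**Figure D3:**
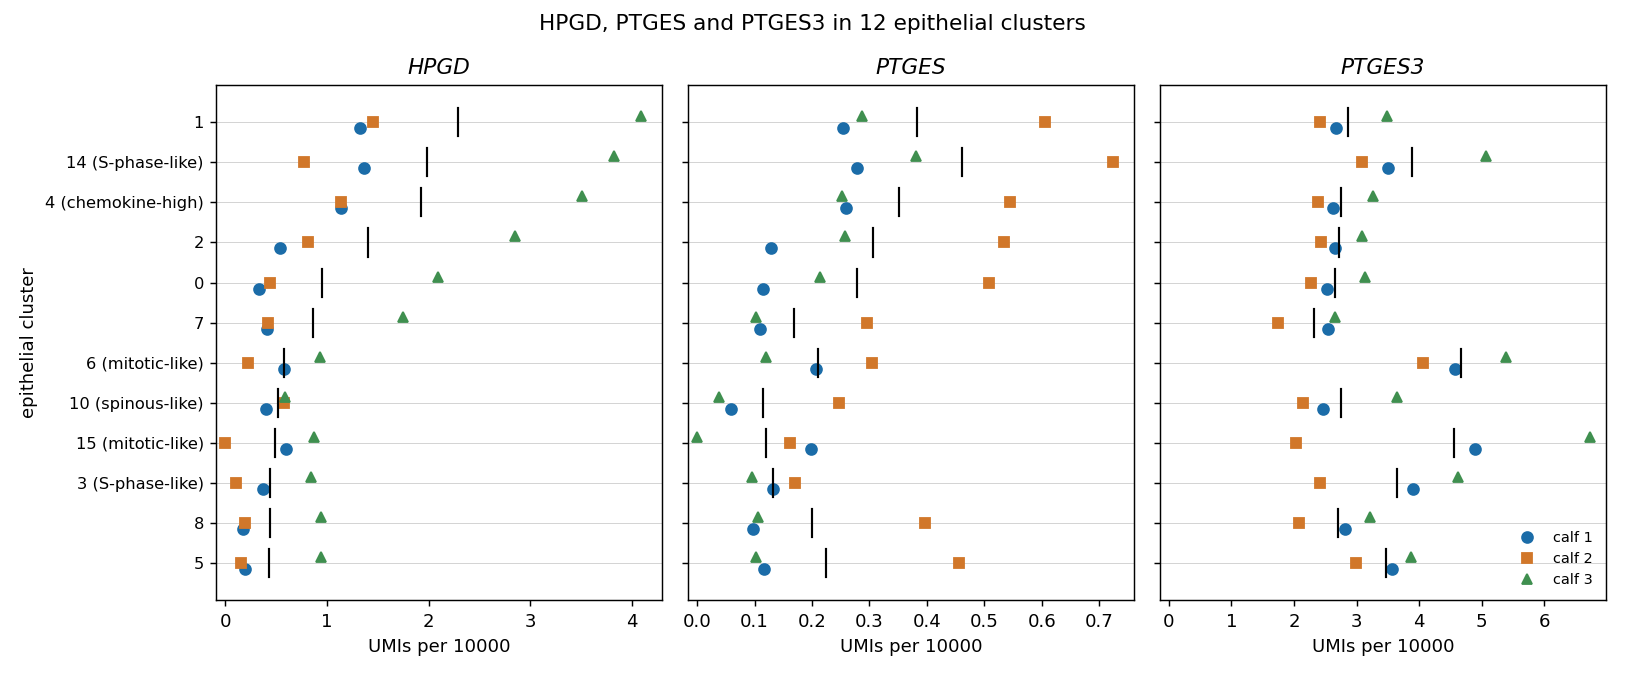
Level of HPGD, PTGES and PTGES3, in UMIs per 10000, in 12 epithelial clusters of 3 newborn calves, ordered by the mean of HPGD, each panel with its own scale. Symbols are calves and lines are means over the 3 calves; calf 3 was highest for HPGD in each cluster, least clearly in spinous-like cluster 10, and calf 2 was highest for PTGES in 11 of the 12 clusters.

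Chemokine-high cells were compared with the 6 unnamed clusters. In this comparison 14.2% of all genes were called and 4 of 8 members, all 4 higher in chemokine-high cells. HPGD had a log2 difference of 1.24 (SE 0.28, adjusted p = 0.00399). PTGS2, at 0.00800, 0.0380 and 0.154 UMIs per 10000 in the chemokine-high cells of calves 1, 2 and 3, had a difference of 1.42 (SE 0.34, adjusted p = 0.00371). These PTGS2 levels rest on 2, 13 and 81 UMIs, and calf 3 was by far the highest. PTGDS and PTGIS had differences of 1.67 (SE 0.31, adjusted p = 2.03e-04) and 2.39 (SE 0.57, adjusted p = 0.00398) at levels no higher than 0.136 and 0.0304. A PTGDS UMI was found in 1.59%, 0.641% and 1.03% of thinned chemokine-high cells, beside 0.674%, 0.538% and 0.523% of all thinned epithelial cells. The part of free RNA in these 2 calls was not tested, and no expression is read from them.

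These calls were not firm, and PTGIS could be tested in 10 alternatives against 16 for the other members called. Without the calf as a block 1 of the 4 was called, beside 221 of all 11041 genes in place of 1568. HPGD, PTGS2 and PTGIS then had adjusted p of 0.430, 0.414 and 0.0823 by edgeR, with log2 differences of 1.15, 1.48 and 2.42. Without calf 1 HPGD was at 1.12 (adjusted p = 0.0587) and PTGDS at 0.98 (adjusted p = 0.123). Leaving out calf 3 put PTGS2 at 1.04 (adjusted p = 0.391). With no filter other than that on detected genes, HPGD was at 0.40 and PTGDS at 0.45 (adjusted p = 0.505 and 0.402), and without Harmony PTGDS was at 0.12 (adjusted p = 0.928). Cluster 1, which is among the unnamed clusters, had more HPGD than the chemokine-high cluster in every calf. Its mean level over calves was 0.0158 for PTGIS, against 0.0147 in the chemokine-high cluster. For PTGDS it was 0.0589 against 0.0677, and for PTGS2 0.0388 against 0.0666. The comparison was thus with the mean of the unnamed clusters and not with each of them. PTGES was at 0.54 in the same comparison and not called (adjusted p = 0.111).

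Spinous-like cells had less PTGES and PTGER4 than the unnamed clusters. Here 50.5% of all genes were called and 2 of 8 members, and the difference between these shares was not tested. PTGES was at 0.0597, 0.248 and 0.0383 UMIs per 10000 in the spinous-like cells of calves 1, 2 and 3, against 0.254, 0.605 and 0.287 in cluster 1 and 0.116, 0.456 and 0.102 in cluster 5. In each calf the spinous-like value was below those of all 6 unnamed clusters, and calf 2 was above the other calves. The log2 difference was -0.93 (SE 0.29, adjusted p = 0.00881), which without calf 3 was -0.76 (adjusted p = 0.0916). PTGER4 was at 0.195, 0.0463 and 0.134 in spinous-like cells, below all 6 unnamed clusters in calves 2 and 3 but inside their range in calf 1. It had a log2 difference of -0.55 (SE 0.22, adjusted p = 0.0383), which was lost without calf 2 (-0.22, adjusted p = 0.541) and without calf 3 (-0.42, adjusted p = 0.303), and also with the filter on detected genes alone (-0.43, adjusted p = 0.148) and at a resolution of 1.2 (-0.42, adjusted p = 0.0956). Without the block neither was called by edgeR, with log2 differences of -0.89 for PTGES (adjusted p = 0.330) and -0.54 for PTGER4 (adjusted p = 0.176).

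Mitotic-like cells had more PTGES3 than the unnamed clusters. In this comparison 27.5% of all genes were called and 1 of 8 members. PTGES3 was at 4.58, 4.07 and 5.39 UMIs per 10000 in mitotic-like cluster 6, above the values of the 6 unnamed clusters in each calf, which reached at most 3.58, 2.99 and 3.87 in cluster 5. In the small mitotic-like cluster 15, whose 184 cells had a median of 1716 UMIs, it was at 4.90, 2.03 and 6.73. The value of calf 2 went the other way, below the lowest value over calves of unnamed clusters 0, 1, 2, 5 and 8. The S-phase clusters came next by their means, cluster 14 at 3.5, 3.09 and 5.07 and cluster 3 at 3.91, 2.42 and 4.62, and their ranges overlapped those of the mitotic-like clusters. The log2 difference was 0.48 (SE 0.09, adjusted p = 1.06e-04) and was called under all 16 alternatives run. HPGD had a difference of -0.74 that was not called (adjusted p = 0.208).

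The cyclooxygenases were low in epithelial clusters. PTGS1 lay between 0 and 0.131 UMIs per 10000 over the clusters and calves, and PTGS2 between 0 and 0.154. Over the epithelial cells as a whole, HPGD and PTGES were compared cell by cell. Of thinned cells with an HPGD UMI, 3.88%, 9.61% and 4.69% also had a PTGES UMI in calves 1, 2 and 3, against 2.80%, 8.70% and 3.68% of cells without HPGD. The difference was small, went the same way in the 3 calves and was not tested. Both genes had their highest mean levels in clusters 1, 14, 4, 2 and 0, and cells were not compared within clusters.

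The receptors of prostaglandin E were unequal in how far they could be seen. PTGER4 (ENSBTAG00000014972) was found at 1.05 and 2.19 UMIs per 10000 in the immune cells of calves 2 and 3, and at 2.39 in the 10 immune cells of calf 1. Epithelial cells held 0.175, 0.149 and 0.279, fibroblasts 0, 0.203 and 0.250, where 0 in calf 1 allows up to 0.374, and endothelial cells 0.0283, 0.0325 and 0.0455. Immune cells were above the other classes in each calf, epithelial cells and fibroblasts overlapped, and endothelial cells were below epithelial cells in each calf. The log2 difference of immune from epithelial cells was 2.59 (SE 0.27, adjusted p = 4.79e-07). Endothelial cells were lower than epithelial cells by -2.86 (SE 0.33, adjusted p = 1.23e-06) and lower than fibroblasts by -2.43 (SE 0.41, adjusted p = 2.14e-04).

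After thinning, 17.1% (95% interval 9.18 to 28.0) of immune cells in calf 2 and 32.3% (28.7 to 36.1) in calf 3 had a PTGER4 UMI, against 3.68%, 3.04% and 5.53% of epithelial cells in calves 1, 2 and 3. In endothelial cells, the class with the least, it was 0 of 67, 0 of 490 and 1 of 609 cells. Unthinned shares were 37.5% and 55.5% in immune cells of calves 2 and 3 and 16.5%, 10.1% and 19.0% in epithelial cells. Among immune clusters PTGER4 was described and not tested. In calf 2 it was at 1.60 in the T-like cluster and 1.37 in the macrophage-like cluster, of 22 cells each. In calf 3 it was at 2.35 in the T-like cluster, 2.46 in the larger dendritic-like cluster, 2.49 in the macrophage-like cluster and 1.64 in the other dendritic-like cluster, and lower in the plasmacytoid dendritic-like cluster, at 0.552 in 29 cells. The unnamed clusters of calf 3 had 4.08 in 29 cells, 1.56 in 30 cells and 0.647 in 34 cells.

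PTGER2 (ENSBTAG00000002163) was hardly detected. The epithelial cells of calves 1, 2 and 3 held 2, 1 and 4 UMIs of it, endothelial cells 0, 0 and 1, fibroblasts 0, 1 and 3, and immune cells 1, 0 and 10. These counts are too low for an order of classes or a fold. Of the 10 UMIs in the immune cells of calf 3, 6 were in the 102 cells of the macrophage-like cluster.

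Other genes were ranked by how closely their level followed each member over 44 sums of a calf and a class or epithelial cluster, among 3396 genes. The sums share libraries, and the correlations of log2(UMIs per 10000 + 0.1) describe these sums only. HPGD was most like TSKU (Pearson r = 0.887), DIPK2A, F3, ITPR2 and HOOK1, and PTGES was most like EFEMP1 (r = 0.810), CCDC3, RAMP1, DCN and MARVELD1. PTGS1 followed C3 (r = 0.929), LOX, IL11RA, PENK and ENSBTAG00000054745. PTGDS followed SPARCL1 (r = 0.981), FBN1, SPARC, COL4A1 and LAMA4. PTGES3 was nearest to PTMA (r = 0.865), SNRPC, PHAX, CACYBP and TOMM5, and PTGER4 to DOCK8 (r = 0.819), PTPN1, LY75, PKIB and TNF. PTGS2, PTGIS and PTGER2 stayed below 1 UMI per 10000 in all classes and epithelial clusters and were not ranked.

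A list of 35 other genes of arachidonic acid release, prostanoid synthesis, transport, reception and the lipoxygenase branch was counted as well, 31 of which were in the matrices and 20 of which could be tested between classes. In endothelial against epithelial cells 6 were higher and 5 lower, where 46.3% of all genes were called, and in fibroblasts against epithelial cells 9 and 4, where 37.5% were. In immune against epithelial cells there were 9 and 6, beside 45.9% of all genes, and in endothelial cells against fibroblasts 1 and 10, beside 26.8%. Without calf 3, where 9306 genes were tested, the list had 8 called for endothelial cells (3658 genes) and 7 for fibroblasts (2730 genes) against epithelial cells. For endothelial cells against fibroblasts it had 4 without calf 3 (2029 genes) and 5 without calf 2 (2387 of 12592 genes). Immune cells without calf 2 or calf 3 rest on 1 calf. Log2 differences of immune from epithelial cells were 10.46 for LTC4S, a leukotriene synthase, 10.13 for ALOX5AP, the protein that presents arachidonic acid to lipoxygenase, and 8.47 for ALOX5. They rest on 13, 20 and 16 UMIs in epithelial cells, with 0 of LTC4S in calf 1. TBXAS1, the thromboxane synthase, had 7.65 from 4 UMIs in epithelial cells and 4 and 24 in the immune cells of calves 2 and 3, and TBXA2R, the thromboxane receptor, 6.11. PTGDR2, a receptor of prostaglandin D, had 27 UMIs in immune cells, 8 in fibroblasts, 1 in endothelial cells and 1 in epithelial cells, so no fold is given.

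In endothelial cells LTC4S had a log2 difference from epithelial cells of 8.68, AKR1B1, a reductase that can make prostaglandin F, 6.0, and SLCO2A1, the carrier that takes prostaglandins up for breakdown, 3.71. Epithelial cells held 13 UMIs of LTC4S and 75 of AKR1B1. TBXAS1 had 4.97 from 8 UMIs in endothelial cells, 0 of them in calf 1, and 4 in epithelial cells, and TBXA2R had 3.84 from 12 and 18 UMIs. SLCO2A1 had 298 UMIs in endothelial cells and 1 in fibroblasts, whose UMIs of all genes came to 6326881 and 1905928, against 185072256 in epithelial cells. CBR1, a carbonyl reductase that acts on prostaglandin E, stood at 0.00474 UMIs per 10000 in endothelial cells from 3 UMIs, 0.0735 in fibroblasts from 14 and 0.0328 in epithelial cells from 607. In fibroblasts TBXA2R had a log2 difference from epithelial cells of 6.76, PTGER3, another receptor of prostaglandin E, 6.77 from 5 and 9 UMIs, and PTGIR, the prostacyclin receptor, 6.68, beside AKR1B1 with 5.77. TBXA2R and PTGIR had 0 UMIs in the 22 fibroblasts of calf 1, and the receptors PTGER1 and PTGDR had 4 UMIs and 1 UMI in all fibroblasts. PTGFR, the receptor of prostaglandin F, had 21 UMIs in fibroblasts, 1 in epithelial cells and 0 in endothelial cells. PTGIR and PTGER3 had 20 and 9 UMIs in fibroblasts and also 0 in endothelial cells, where 3 counts over the class would be 0.00474 UMIs per 10000.

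Among epithelial clusters 12 genes of the list could be tested. Spinous-like cells had 5 of them higher and 2 lower than the unnamed clusters, where 50.5% of all genes were called, among them PLA2G16, a phospholipase, with a log2 difference of 3.97 (SE 0.18, adjusted p = 7.79e-21) and ALOX15B, a lipoxygenase, with 2.57 (SE 0.36, adjusted p = 2.65e-07). Mitotic-like and chemokine-high cells each had 1 gene of the list called, beside 27.5% and 14.2% of all genes. Across the 12 clusters 9 of the 12 were called, beside 79.8% of all genes, so the list did not stand out there.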

How the data were processed

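The authors deposited raw counts of UMIs per gene and barcode, made with Cell Ranger 3.1.0 on the ARS-UCD1.2 cattle genome. Barcodes were kept with 500 to 4000 genes, up to 50000 UMIs and up to 40% of them from 13 mitochondrial genes. Likely doublets, 3.91%, 8.52% and 8.39% of the barcodes that passed in calves 1, 2 and 3, were those with the most simulated doublets among their neighbours, at an expected share that grows with the number of barcodes. Counts were log-normalised, and 2000 variable genes without the members and the pathway list went into principal components, merged over calves by an implementation of Harmony and clustered with leidenalg 0.10.2 (30 components and a resolution of 0.1 for classes, 50 and 0.8 within them). A cluster was named where a list of markers was raised by a mean of 1 on the log2 scale, with at least 3 of its genes raised by 0.5.

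Counts summed per calf and class, or per calf and epithelial cluster, were tested with edgeR 4.0.16 (R 4.3.3; quasi-likelihood F test, TMM scaling, low-count filter, calf as block), adjusted by Benjamini-Hochberg over all genes. Sums of fewer than 20 cells were left out. SE is the log2 difference over the square root of F. The alternatives were DESeq2 1.42.0, no block, no low-count filter, leaving out each calf, other cell minimums, other cell filters, no doublet removal, no Harmony, members kept for clustering, other resolutions and other thinning depths. Tests planned against basal-like cells could not be run, as no cluster was named basal; spinous-like, mitotic-like and chemokine-high cells were compared with the unnamed clusters instead, a choice made after the data were seen. The members and lists were chosen with earlier results of these data known. Pathway genes are named where called and past 4-fold, at most 6 per comparison, and the 5 genes most like a member where it reached 1 UMI per 10000. The pipeline was tested on simulated data.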

Additional observations from a re-analysis of the deposited data

Results flagged for a closer look

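Barcodes outside the limits of 500 to 4000 genes were not used in any comparison and still held UMIs of the members. In the 1621 barcodes with more than 4000 genes, taken over the 3 calves, HPGD was at 0.803 UMIs per 10000, PTGES3 at 4.17, PTGER4 at 0.226, PTGES at 0.153 and PTGDS at 0.0773. PTGS1 was at 0.0296, PTGS2 at 0.0236, PTGIS at 0.0154 and PTGER2 at 0.0014 in these barcodes. HPGD stood there at 0.507, 0.369 and 1.36 in calves 1, 2 and 3, again highest in calf 3, and PTGES at 0.156, 0.308 and 0.0983, again highest in calf 2. In the 3392 barcodes with fewer than 500 genes, HPGD was at 0.133, PTGES3 at 0.753, PTGDS at 0.0947, PTGER4 at 0.0753, PTGES at 0.0444, PTGS1 at 0.0232, PTGS2 at 0.0213 and PTGIS at 0.0193. These levels were above the one that a count of 0 allows, which PTGER2, with 3 UMIs in the barcodes with fewer than 500 genes, did not pass.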

How the results depend on the processing

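Called under all 14 alternatives run were HPGD, PTGDS and PTGIS in endothelial cells and fibroblasts, each against epithelial cells. PTGES and PTGER4 in endothelial cells and PTGS1 in fibroblasts, against epithelial cells, were also called under all 14. So were PTGS1, PTGES and PTGER4 in endothelial cells against fibroblasts. HPGD, PTGES and PTGER4 in immune against epithelial cells were called wherever calves 2 and 3 were both kept. Without calf 2 or calf 3, immune cells rest on 1 calf. HPGD in endothelial against epithelial cells ranged from -4.80 to -2.75 and in immune against epithelial cells from -4.37 to -2.04, and PTGES in endothelial against epithelial cells from -6.37 to -2.55. Of 814 member values, 727 kept their direction and side of the threshold, 24 lost a call, 28 gained one, 33 changed sign without a call on either side, and 2 changed sign with a call. The last 2 were of 1 difference: PTGER4 in chemokine-high cells against the unnamed clusters, at -0.14 and not called, was 0.57 with no filter other than that on detected genes and 0.60 without Harmony. The cause was not tested.

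The number of members called in spinous-like cells was 2, beside 5575 of all genes. It was 0 by edgeR without the block, and 0 at an unadjusted p under 0.05, beside 3589 genes. With the genes filter alone it was 1 (5640 genes), and at a resolution of 1.2 it was 1 (5519). It was 3 by DESeq2 with the block (5650), without the low-count filter (5739) and without doublet removal (5719). It was also 3 without Harmony (5143), with members kept for clustering (5263) and with UMI totals (5916). In mitotic-like cells it was 1, beside 3033 genes. There it was 2 by DESeq2 (2897 genes), 2 without the low-count filter (3088), 2 without doublet removal (3659) and 3 without Harmony (3140). In chemokine-high cells it was 4, beside 1568 genes. There it was 1 without the block (221 genes) and 2 with the genes filter alone (568). It was 5 by DESeq2 (1862), 5 at a resolution of 0.4 (2225), 6 without the low-count filter (1789) and 6 with members kept for clustering (2880). Among all epithelial clusters it was 5 in place of 8 without the block, beside 4891 genes in place of 8810. Some settings also changed how many genes and members were tested. Leaving out a calf gave 5 to 6 members for endothelial against epithelial cells, beside 3658 to 4906 genes in place of 5342. For fibroblasts against epithelial cells it gave 6, beside 2730 to 4104 in place of 4331. For immune cells without calf 1 it was 3, beside 5325 in place of 5301. For endothelial cells against fibroblasts it was 3 to 7, beside 2029 to 2867 in place of 3090. The 3 came without calf 3, and the 7, of 9 tested, without calf 2. It was 1 to 2 for spinous-like cells (4395 to 4809 genes), 1 to 2 for mitotic-like cells (1988 to 2267) and 2 to 4 for chemokine-high cells (512 to 1054). Among clusters it was 4 to 7 (6547 to 7379), the 4, of 7 tested, without calf 3. Spinous-like cells had 1 without calf 2 and without calf 3, chemokine-high cells 2 without calf 1 and without calf 3, and mitotic-like cells 2 without calf 1. Immune cells without calf 2 or calf 3 rest on 1 calf, assumed to vary like the others, so their counts are left out here.

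UMI totals in place of TMM scaling, an alternative chosen after seeing the data, moved the median of all genes to 0.36, 0.36 and 0.19 in endothelial cells, fibroblasts and immune cells against epithelial cells. Genes called higher and lower went from 2754 and 2588 to 4129 and 1787 in endothelial cells, from 2227 and 2104 to 3436 and 1198 in fibroblasts, and from 2625 and 2676 to 3310 and 1999 in immune cells. In spinous-like cells they went from 2782 and 2793 to 2178 and 3738, and in mitotic-like cells from 1271 and 1762 to 1903 and 903 (1563 and 1334 by DESeq2). In chemokine-high cells they went from 919 and 649 to 922 and 675 (1316 and 546 by DESeq2). With UMI totals PTGDS in immune cells was called at 1.19 (adjusted p = 0.0414). Without doublet removal the mean level of HPGD was 0.204 in place of 0.0787 in endothelial cells and 0.327 in place of 0.142 in immune cells, that of PTGER4 0.0652 in place of 0.0355 in endothelial cells, and that of PTGDS 6.54 in place of 8.06 in fibroblasts. The mean of PTGES in endothelial cells, 0.00637, was 0.0586 without doublet removal and 0.0155 with at most 20% mitochondrial UMIs. Counts limit PTGER2 in all classes, PTGS2 and PTGES in endothelial cells, PTGIS in immune cells, and most members in the fibroblasts and immune cells of calf 1.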
